A study of Mus musculus with 9 samples.

Results

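Skeletal muscle sarcomere and calcium genes were followed by name through RNA-seq libraries of rat penile tissue. The list holds 34 genes, and 31 of them stand in the tables under these symbols, of 21124 genes in all. The labels give mouse as the organism, whereas all 21124 gene identifiers are rat Ensembl identifiers, so the tissue is called rat here. Mylpf, Myot and Myh1 do not stand there under these symbols. A gene listed as Myl11, the current symbol of Mylpf, was read beside the list and not counted as a member. Of the 31 members, 10 belong to fast fibres (Myh2, Myh4, Tnnt3, Tnni2, Tnnc2, Myl1, Actn3, Pvalb, Atp2a1 and Mybpc2), 3 belong to slow fibres (Tnnt1, Tnni1 and Tnnc1), and 18 are used by both fibre classes or were assigned to neither.

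The 3 groups had 3 libraries each, from tissue taken 4 weeks after surgery. In the Sacral NC group both major pelvic ganglia, which carry the autonomic nerves of the penis, were clamped before a transplant of sacral neural crest cells made from human pluripotent stem cells (hPSC). The Injury group had the same clamping without the transplant, and no mock transplantation is named. The Sham group had the surgery with the ganglia left uninjured, so all 9 libraries share the operation. The labels give no strain, age, sex or transplanted cell number, and they do not say whether the 3 libraries of a group come from separate animals. All p-values therefore measure the spread between these libraries, which may be technical. The labels also name a cell line and pluripotent stem cells as the source. Of the pluripotency genes, Pou5f1 had 0 to 2 reads and Lin28a had 0 to 4 reads per library. Sox2, which Schwann and epithelial cells also express, had 107 to 376 reads. Of the 6 pluripotency genes in the tables, 2 passed the low-count filter, so Sox2 was not the only one with more than a few reads.

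The sarcomere is the contractile unit of striated muscle, in which myosin of the thick filament pulls on actin of the thin filament between Z-discs. An action potential opens the calcium release channel of the sarcoplasmic reticulum, calcium binds troponin C, the troponin complex uncovers the thin filament, and a calcium pump then ends the contraction. Fast and slow fibres use different genes for the myosin heavy chain, the troponins and the pump. The erectile tissue itself holds smooth muscle, which uses other actin and myosin genes. Striated muscles such as the bulbospongiosus and ischiocavernosus lie against the base of the penis.

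Total counts ran from 15442190 to 18283418 per library. Collagen genes took 2.15 % to 5.20 % of the counts in Sacral NC, 15.1 % to 18.6 % in Injury and 3.77 % to 4.52 % in Sham. In bulk tissue, fewer cells of a type and less RNA per cell cannot be told apart.

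Member reads differed between libraries of the same group by more than they differed between groups. They made up 0.00858 %, 0.344 % and 0.0124 % of all counts in Sacral NC 1, 2 and 3. In Injury 1, 2 and 3 they made up 0.296 %, 3.70 % and 0.0202 %, and in Sham 1, 2 and 3 they made up 1.30 %, 0.0121 % and 0.0136 %. Each group thus held at least 1 library high and 1 library low in skeletal muscle reads. The group means were 0.122 % ± 0.193 in Sacral NC, 1.34 % ± 2.05 in Injury and 0.442 % ± 0.743 in Sham (SD, n = 3 each), with an SD above the mean in every group. Counting error is small beside this: the 95 % Clopper-Pearson interval of the lowest share, in Sacral NC 1, began at 0.00814 %. The 4 libraries with most member reads (Sacral NC 2, Injury 1, Injury 2 and Sham 1) were picked out after their reads were seen and are given library by library or as ranges, with no test between them and the other 5.

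**Figure D1:**
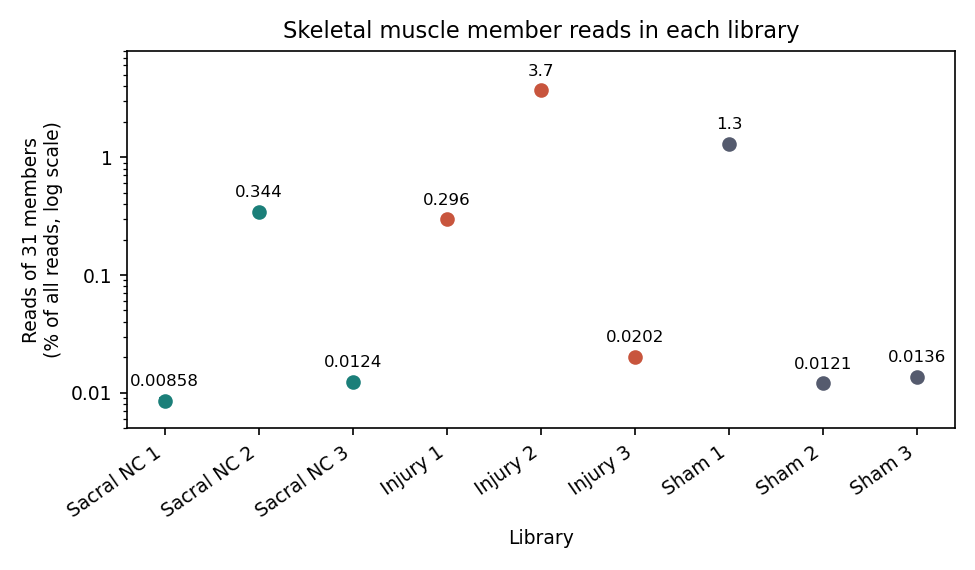
Share of all reads that fell on the 31 skeletal muscle members in each library, on a log axis, with 1 point per library and 95 % Clopper-Pearson intervals that are smaller than the points. Injury 2 at 3.70 % and Sham 1 at 1.30 % lie highest, and the 5 lowest libraries, from all 3 groups, lie between 0.00858 % and 0.0202 %.

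Nearly all members had their highest levels in the same 4 libraries. These 4 libraries were picked by the summed reads of the members, which fixed part of this agreement in advance. In 29 of 31 members the 4 highest libraries were Injury 2, Sham 1, Injury 1 and Sacral NC 2, against 2.78 % of all 15509 genes tested. The exceptions were Tnnt1 and Tnni1, both slow troponin genes. Injury 2 was highest for 27 members. Sham 1 was highest for Tnnt1, Tnnc1 and Tcap, and Injury 1 for Myh2. In 26 members Injury 2 came first and Sham 1 second.

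**Figure D2:**
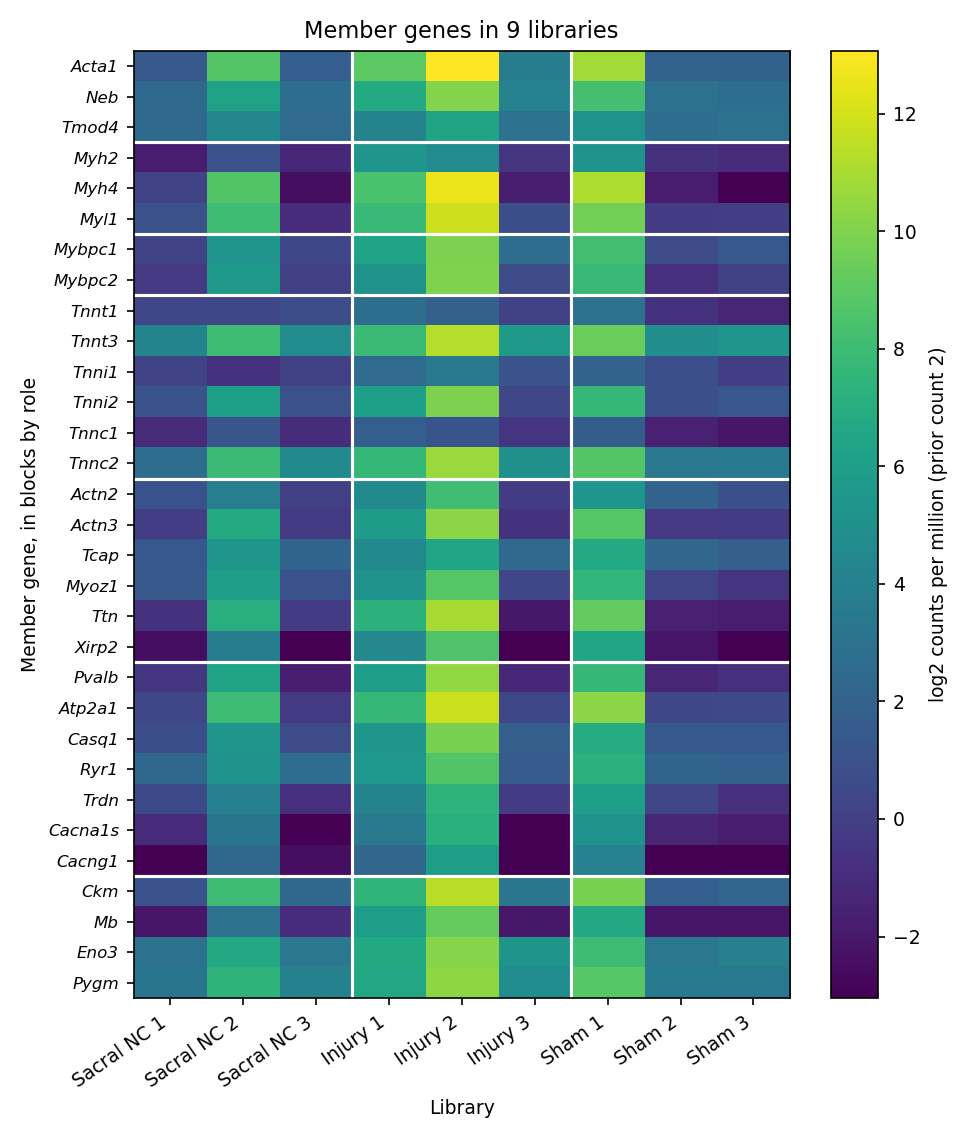
Level of each member as log2 CPM (prior count 2) in the 9 libraries, in blocks by role from thin filament genes at the top to energy and oxygen genes at the bottom. The columns of Sacral NC 2, Injury 1, Injury 2 and Sham 1 are bright across almost all rows, while the rows of Tnnt1, Tnni1 and Tnnc1 stay dark throughout.

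Acta1 (ENSRNOG00000017786, chromosome 19, 51883715 to 51886742, minus strand), the actin of the skeletal muscle thin filament, had the most reads of any member. It had 44, 6961 and 53 reads in Sacral NC 1, 2 and 3, 8044, 124332 and 210 reads in Injury 1, 2 and 3, and 34120, 72 and 67 reads in Sham 1, 2 and 3. The 3 groups overlapped, and within Injury alone the reads lay between 210 and 124332. Of the 31 members, all but Tnni1 overlapped in each of the 3 comparisons. Tnni1 did not overlap only with Sacral NC below Injury, as did 12.4 % of all tested genes. For the other comparisons the share of all tested genes without overlap was not counted. The number of overlapping members is therefore no result about the members. Neb encodes nebulin, the giant protein that runs along the thin filament. It had 90, 1247 and 106 reads in Sacral NC, 1678, 15787 and 276 in Injury and 5905, 144 and 120 in Sham. Tmod4, which caps the slow-growing end of thin filaments, ranged from 91 reads in Sacral NC 1 to 1212 in Injury 2, a narrower range than that of either gene.

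The myosin heavy chain is the motor of the thick filament, and its gene sets the contraction speed of a fibre. Myh4 (ENSRNOG00000049695, chromosome 10, 51885913 to 51946295, plus strand), the heavy chain of the fastest fibres, had 18, 6791 and 1 reads in Sacral NC 1, 2 and 3, 5321, 91573 and 3 in Injury 1, 2 and 3, and 40064, 3 and 0 in Sham 1, 2 and 3. No other gene among the 15509 tested had a larger SD within groups (7.06 on the log2 scale). Myh2 (ENSRNOG00000065740, chromosome 10, 51856738 to 51883236), the heavy chain of fast oxidative fibres, had 3, 30 and 5 reads in Sacral NC, 654, 385 and 9 in Injury and 688, 9 and 6 in Sham. Unlike Myh4, Myh2 was highest in Sham 1 by reads and in Injury 1 by share of library counts, and it stayed at 30 reads in Sacral NC 2. Myl1, the alkali light chain of fast myosin, was at 6 to 30 reads in the 5 other libraries (Sacral NC 1 and 3, Injury 3, and Sham 2 and 3) and at 4384, 3632, 53482 and 14558 reads in Sacral NC 2, Injury 1, Injury 2 and Sham 1. Myl11, the regulatory light chain of fast myosin, had 2996, 2944, 46546 and 8073 reads in these 4 libraries and 52 to 63 in the others.

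The heavy chain genes are closely alike in sequence, and the sources used here do not say how reads that fit several of them were counted. The span that the tables give Myh4 is 60383 bases, against 26499 for Myh2 and 29723 for Myh8, and it begins 2676 bases after the end of Myh2. In the mouse RefSeq annotation (GRCm38.p6), Myh1, the heavy chain of a further fast fibre class, lies between Myh2 and Myh4. Whether rat Myh1 reads were counted as Myh4 was not tested, so Myh4 values here are read as fast heavy chain and not as a single fibre class.

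With this limit, the mix of heavy chain reads differed between the 4 libraries. Shares within a set of genes are shares of reads, not corrected for transcript length, and they compare libraries, not the amounts of the genes. Over 6 heavy chain genes (Myh2, Myh3, Myh4, Myh7, Myh8 and Myh13), Myh4 took 96.0 % of the reads in Sacral NC 2, 65.8 % in Injury 1, 96.5 % in Injury 2 and 94.8 % in Sham 1. The rest in Injury 1 was mostly Myh8, the perinatal heavy chain, which took 3.42 % of the reads in Sacral NC 2, 24.9 % in Injury 1, 2.29 % in Injury 2 and 3.19 % in Sham 1. Myh2 took 0.424 % in Sacral NC 2, 8.09 % in Injury 1, 0.406 % in Injury 2 and 1.63 % in Sham 1. Injury 1 therefore stood apart from Injury 2, its companion in the group, while the Myh4 shares of Sacral NC 2, Injury 2 and Sham 1 lay between 94.8 % and 96.5 %. The intervals of the Myh4 share did not touch between Injury 1 (at most 66.9 %) and Sham 1 (at least 94.6 %, 95 % Clopper-Pearson, counting error only). Myh7, the slow heavy chain, had 4, 7, 6 and 69 reads in Sacral NC 2, Injury 1, Injury 2 and Sham 1, at most 0.163 % of the heavy chain reads.

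**Figure D3:**
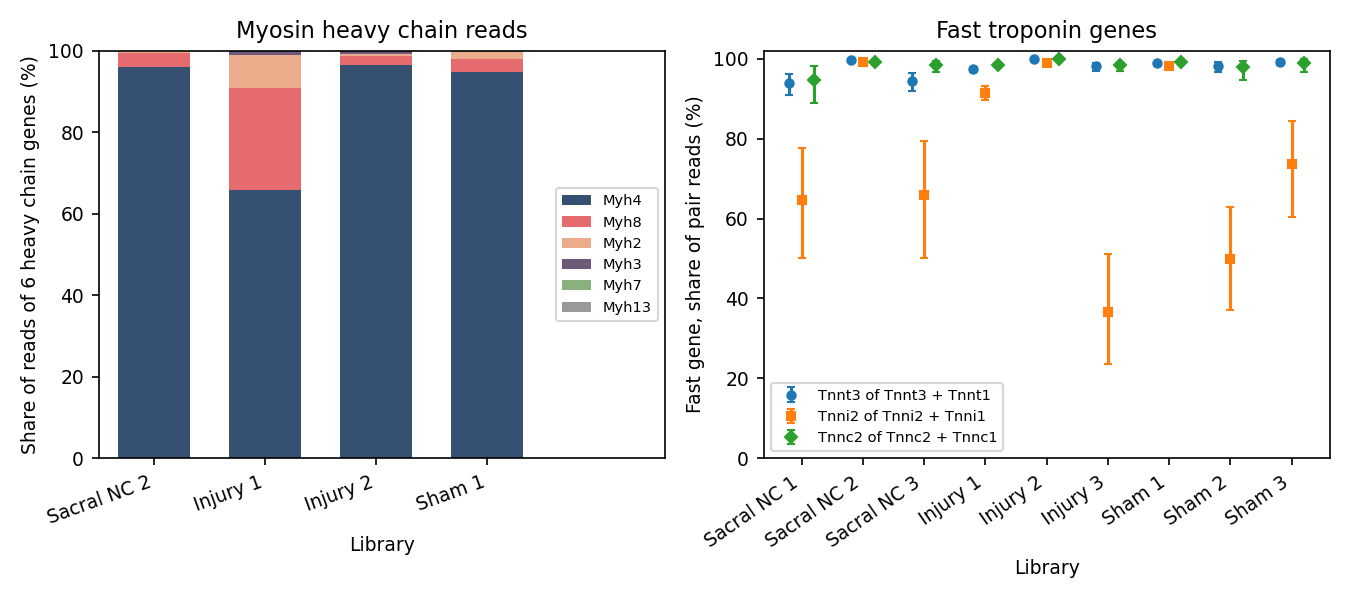
Left, the share of each of 6 myosin heavy chain genes in their summed reads in Sacral NC 2, Injury 1, Injury 2 and Sham 1; right, the share of the fast gene in each fast and slow troponin pair in all 9 libraries, with 95 % Clopper-Pearson intervals. Myh8 holds 24.9 % of heavy chain reads in Injury 1 and at most 3.42 % in the other 3 bars, and the fast troponin I share falls below 75 % in the 5 libraries with few member reads.

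Troponin is the calcium switch of the thin filament, made of a tropomyosin-binding, an inhibitory and a calcium-binding subunit. Tnnt3 (ENSRNOG00000020332, chromosome 1, 197652431 to 197669535), fast troponin T, had 311, 4333 and 424 reads in Sacral NC 1, 2 and 3, 3778, 36333 and 786 in Injury 1, 2 and 3, and 12917, 517 and 708 in Sham 1, 2 and 3. Tnnt1, slow troponin T, had 20, 19 and 25 reads in Sacral NC, 104, 53 and 15 in Injury and 139, 9 and 5 in Sham. Sacral NC 2, with 53182 member reads in all, had no more Tnnt1 reads than Sacral NC 1 and 3. The fast gene took 94.0 % to 99.9 % of the pair's reads in all 9 libraries.

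Fast troponin I, Tnni2, had 33, 1089 and 29 reads in Sacral NC 1, 2 and 3, 997, 13705 and 19 in Injury 1, 2 and 3, and 3799, 31 and 42 in Sham 1, 2 and 3. Slow troponin I, Tnni1 (ENSRNOG00000009073, chromosome 13, 47229216 to 47241644), had 18, 8 and 15 reads in Sacral NC, 92, 160 and 33 in Injury and 73, 31 and 15 in Sham. Sacral NC 2 was the lowest of all 9 libraries for Tnni1 although it was among the 4 highest for 29 members. Injury 3, poor in member reads, still had more Tnni1 reads than each Sacral NC library. The fast share of this pair was 99.3 %, 91.6 %, 98.8 % and 98.1 % in Sacral NC 2, Injury 1, Injury 2 and Sham 1. In the 5 other libraries it lay between 36.5 % and 73.7 %, on 44 to 62 reads a library.

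The calcium-binding subunit also has a fast and a slow gene. Tnnc2, fast troponin C, had 109, 4025 and 382 reads in Sacral NC 1, 2 and 3, 3106, 22924 and 530 in Injury 1, 2 and 3, and 8060, 186 and 209 in Sham 1, 2 and 3. Tnnc1, the troponin C of slow skeletal and cardiac muscle, had 6, 35 and 6 reads in Sacral NC, 50, 30 and 9 in Injury and 59, 4 and 2 in Sham. The fast share was 94.8 % to 99.9 % over the 9 libraries. Cardiac muscle is a further known source of Tnnc1. Of 6 cardiac markers in the tables, Nppa and Nppb had at most 2 reads in any library, Tnni3 at most 6 and Myl7 at most 12, whereas Myh6 had 24 to 221 and Ryr2 27 to 130. Tnnt2, the troponin T of cardiac and developing skeletal muscle, had 41 to 96 reads. The part of cells that express these genes in the Tnnc1 reads was not tested.

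Z-disc and titin genes hold the filaments in register. Ttn encodes titin, the spring that spans from Z-disc to M-line. It had 8, 2191 and 12 reads in Sacral NC 1, 2 and 3, 2425, 28483 and 2 in Injury 1, 2 and 3, and 10868, 4 and 3 in Sham 1, 2 and 3. Actn2, the Z-disc actinin of all fibres, had 31, 235 and 14 reads in Sacral NC, 393, 4010 and 12 in Injury and 780, 74 and 31 in Sham. Actn3, the actinin of fast fibres, took 88.5 % of the reads of the Actn3 and Actn2 pair in Sacral NC 2, 68.1 % in Injury 1, 81.6 % in Injury 2 and 91.6 % in Sham 1. The lowest fast share was again that of Injury 1. Tcap, the cap protein of titin, had 41, 744 and 68 reads in Sacral NC, 367, 1253 and 87 in Injury and 2033, 85 and 61 in Sham. It was 1 of the 3 members with their highest level in Sham 1. Xirp2, an actin-binding protein of the Z-disc and intercalated disc, had 1, 212 and 0 reads in Sacral NC, 357, 5629 and 0 in Injury and 1569, 2 and 0 in Sham. Myoz1, a calcineurin-binding Z-disc protein, ranged from 10 reads in Sham 3 to 6658 in Injury 2. The thick filament proteins of the myosin-binding group showed a further contrast of Injury 1: the fast gene Mybpc2 took 54.5 %, 31.1 %, 50.8 % and 42.7 % of its reads summed with Mybpc1 in Sacral NC 2, Injury 1, Injury 2 and Sham 1.

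Among the calcium genes, Atp2a1 encodes the calcium pump of the fast fibre reticulum. It had 20, 4221 and 11 reads in Sacral NC 1, 2 and 3, 3184, 50290 and 20 in Injury 1, 2 and 3, and 22820, 21 and 23 in Sham 1, 2 and 3. Atp2a2, the pump of slow, cardiac and smooth muscle and of non-muscle cells, lay between 4483 and 7045 reads in all 9 libraries. The fast pump gene thus split the libraries where its broadly expressed relative did not. Casq1, the calcium store protein of the reticulum, had 27, 672 and 24 reads in Sacral NC, 686, 12401 and 56 in Injury and 2229, 47 and 44 in Sham. Cacng1, a subunit of the voltage sensor channel, had 0, 81 and 1 reads in Sacral NC, 71, 930 and 0 in Injury and 320, 0 and 0 in Sham. Each library thus had either at least 71 reads of it or at most 1. The release channel gene Ryr1 was less sharply split, with 46 to 104 reads in the 5 other libraries and 582, 712, 6051 and 2889 reads in Sacral NC 2, Injury 1, Injury 2 and Sham 1. Pvalb, the calcium buffer parvalbumin of fast fibres, had at most 10 reads in those 5 libraries and 1354, 949, 20704 and 3880 reads in the 4.

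Energy and oxygen genes closed the list. Ckm, muscle creatine kinase, had 32, 4259 and 82 reads in Sacral NC 1, 2 and 3, 2731, 37369 and 158 in Injury 1, 2 and 3, and 15906, 58 and 81 in Sham 1, 2 and 3. Mb, the oxygen store myoglobin, had 2, 125 and 6 reads in Sacral NC, 933, 8685 and 2 in Injury and 1854, 2 and 2 in Sham. Mb was thus lower in Sacral NC 2 than in Injury 1, although their total member reads were close (53182 and 47206). Pygm, muscle glycogen phosphorylase, had 155, 2777 and 256 reads in Sacral NC, 1457, 18443 and 450 in Injury and 8848, 223 and 189 in Sham. Eno3, the muscle enolase of glycolysis, had 136, 1710 and 162 reads in Sacral NC, 1634, 16317 and 644 in Injury and 4797, 184 and 279 in Sham. Unlike Mb, Pygm and Eno3 kept over 100 reads in every library.

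The 5 libraries with few member reads (Sacral NC 1, Sacral NC 3, Injury 3, Sham 2 and Sham 3) did not hold a scaled-down copy of the mix in the others. In these 5, 15 members had at most 30 reads in each library, while Tnnt3, Tnnc2, Eno3 and Pygm had at least 100 reads in each. Tnnt3 made up 21.7 %, 21.5 %, 21.3 %, 25.7 % and 32.1 % of the member reads in these 5 libraries, in the order named. Its share was 5.78 % to 8.15 % in Sacral NC 2, Injury 1, Injury 2 and Sham 1. Acta1 moved the other way, with 2.69 % to 5.68 % of the member reads in the 5 libraries and 13.1 % to 19.8 % in the 4. Myh4 took 0 % to 1.26 % in the 5 and 11.3 % to 17.9 % in the 4. Injury 3 had the most Acta1, Eno3, Tnnc2, Pygm, Neb and Ckm reads of the 5 libraries, and 3 reads of Myh4.

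Some members overlap other annotated genes, and the part of such overlap in these low counts was not tested. The spans of 6 members overlap another gene, 5 of them on the other strand: Ckm overlaps Mark4, Tnnc2 overlaps Ube2c, Atp2a1 overlaps Rabep2, Eno3 overlaps Pfn1 and Tmod4 overlaps Scnm1, and Tcap overlaps Stard3 on the same strand. The sources used here give no strand setting for the counting, so reads in the shared stretches of such pairs cannot be told apart. The spans of Eno3 and Tcap lie wholly within that of the other gene, whereas Ckm, Tnnc2, Atp2a1 and Tmod4 share only an end with it. Pfn1 had 3003 to 3423 reads in every library, whereas Ube2c had 4 to 92. Tnnt3 and Pygm, with at least 155 reads in every library, overlap no gene of the tables.

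Members also differed in how 1 library rich in member reads compared with the next. The ratio of read shares in Injury 2 over Sham 1 had a median of 2.66 over the 31 members and ran from 0.387 for Tnnt1 to 5.64 for Casq1. It was above 1 with its whole 95 % counting interval for 27 members, and below 1 for Tnnt1, Tnnc1 (0.515), Myh2 (0.567) and Tcap (0.625). The slow genes did not move together: Tnni1 was at 2.22 (1.67 to 2.97), on the same side of 1 as 9 of the 10 fast members, while Tnnt1 and Tnnc1 were below 1. A difference between fast and slow members was not tested. Pvalb (5.41), Actn2 (5.21) and Mb (4.75) lay at the upper end with Casq1. These are ratios of single libraries, so they compare those libraries and not the conditions.

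Injury 1 over Sham 1 gave a median of 0.266. The intervals of 27 members lay below 1, from 0.106 for Actn3 upward. The 4 whose interval held 1 were Myh2 (1.03), Tnni1 (1.36), Tnnc1 (0.915) and Tnnt1 (0.808), that is the 3 slow troponin genes and the heavy chain of fast oxidative fibres. The slow genes had few reads in Injury 1 and Sham 1: Tnni1 92 and 73, Tnnc1 50 and 59, and Tnnt1 104 and 139. In the 5 libraries poor in member reads, Tnni1 still had 15 to 33 reads and Tnnt1 5 to 25. The part of such reads in these ratios was not tested. Sacral NC 2 over Injury 1 had a median of 1.08, and here Myh2 was the lowest at 0.0473 and Actn3 the highest at 2.22. Sacral NC 2 over Injury 2 had a median of 0.0900.

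**Figure D4:**
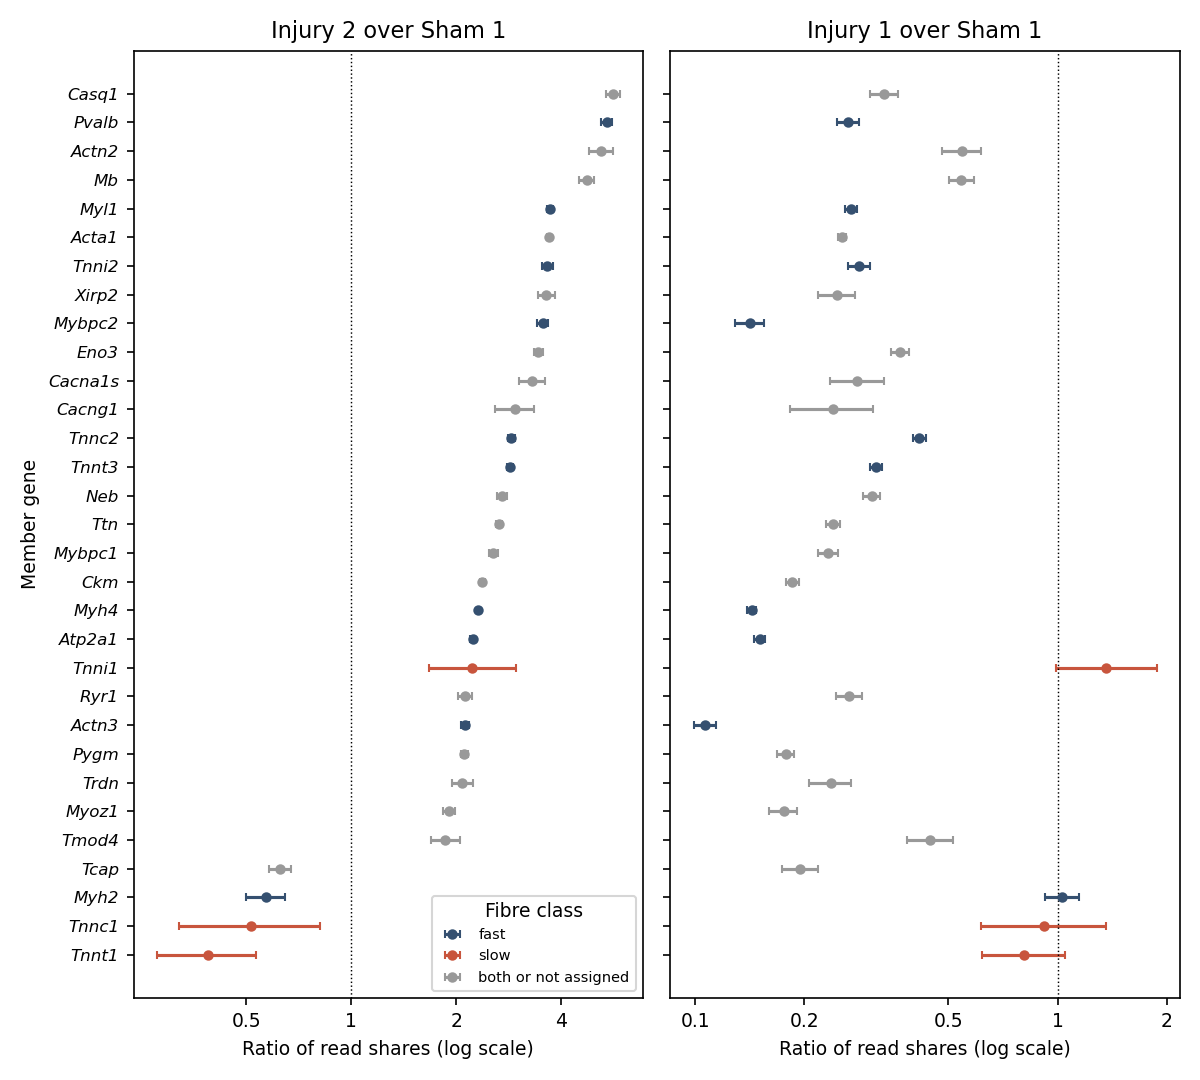
Ratio of read shares of each member between single libraries on log axes, Injury 2 over Sham 1 on the left and Injury 1 over Sham 1 on the right, with 95 % counting intervals and colours for fast, slow and other members. On the left 27 members lie above 1 and 4 below it; on the right Actn3 lies lowest at 0.106 and the 3 slow troponin genes and Myh2 lie nearest to 1.

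Some genes of the further muscle lists were high in Injury 1 relative to Acta1. Of the 4 libraries rich in member reads, Injury 1 had the highest ratio of reads to Acta1 reads in all 5 developmental sarcomere genes, 7 of 13 tested regulators of muscle formation, 15 of 32 further sarcomere genes, 5 of 16 genes of the neuromuscular junction and denervation, 5 of 18 calcium genes, 1 of 16 genes of energy metabolism and 8 of the 30 members besides Acta1, against 18.9 % of all tested genes. Sacral NC 2 and Injury 1 had the fewest Acta1 reads of the 4, and 12526 of the 15509 tested genes had their highest ratio in Sacral NC 2. The examples that follow were chosen after their values were seen and show no more than these counts. Read against Acta1 within each library, Myh8 had 34.8, 250.4, 17.5 and 39.5 reads per 1000 Acta1 reads in Sacral NC 2, Injury 1, Injury 2 and Sham 1. Chrna1, the alpha subunit of the muscle acetylcholine receptor, had 0.718, 9.57, 0.571 and 0.821, from 5, 77, 71 and 28 reads. Myog, the differentiation factor myogenin, had 1.58, 6.09, 1.42 and 0.791, from 11, 49, 177 and 27 reads. Each of these 3 ratios was highest in Injury 1 of these 4 libraries. Actc1, the actin of heart and developing skeletal muscle, had 20.5, 52.8, 13.0 and 7.62 reads per 1000 Acta1 reads, and Myl3, a light chain of slow and cardiac muscle, 14.2, 55.4, 6.06 and 9.14. Myh2 itself, a member, had 4.31, 81.3, 3.10 and 20.2.

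The first comparison by group, Sacral NC against Injury, addresses the transplantation after clamping. No member passed the edgeR quasi-likelihood test at a Benjamini-Hochberg adjusted p under 0.05, over a background of 6.96 % of all tested genes called (1080 genes). At an unadjusted p under 0.05 stood 1 member, Tnni1, against 26.6 % of all tested genes. By DESeq2 1 member was called, again Tnni1, over 14 % of its tested genes. The median log2 change of the members was −3.79, and that of all tested genes was 0.03. All 31 fitted changes were below 0, but the median was −0.66 without Injury 2 and −7.47 without Sacral NC 2, so single libraries set its size.

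Tnni1 was the only member whose Sacral NC and Injury libraries did not overlap, over a background of 12.4 % of tested genes that did not overlap with Sacral NC lower. Its scaled counts averaged 13.9 ± 5.14 in Sacral NC and 106 ± 75.4 in Injury (SD, n = 3 each). The log2 change was −2.92 ± 0.75 (SE) with an edgeR adjusted p of 0.0543, just above the threshold. By DESeq2 the log2 change was −2.96 with an adjusted p of 0.000884, and the authors' deposited table gives an adjusted p of 0.000839. Tnni1 also had the smallest SD within groups of the 31 members, 0.967 on the log2 scale. Of its variance, 63.2 % lay between groups, against a median of 38.6 % for all tested genes. The authors' deposited table places 2 members under an adjusted p of 0.05 here, Tnni1 and Myh2 (adjusted p = 0.0496 for Myh2), among 14.8 % of its genes. In the edgeR fit Myh2 had scaled counts of 12.8 ± 15.2 in Sacral NC and 387 ± 353 in Injury (SD, n = 3 each), with a log2 change of −4.90 ± 2.20 (SE) and an adjusted p of 0.205. Mb had a log2 change of −6.35 ± 3.09 (SE, edgeR adjusted p = 0.237) and Acta1 of −4.41 ± 3.28 (SE, edgeR adjusted p = 0.422).

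The effect of clamping alone is addressed by Injury against Sham. No member passed in either direction, over 4.43 % of all tested genes called (687 genes), and 0 members stood at an unadjusted p under 0.05, against 21.9 % of all tested genes. DESeq2 called 0 members over 9.79 % of its tested genes, and 0 members lie under an adjusted p of 0.05 in the authors' deposited table, whose change runs Sham over Injury and which places 10.0 % of its genes there. The members' median log2 change was 1.86, against −0.04 for all tested genes. It turned to −1.15 without Injury 2 and to 7.37 without Sham 1. The 3 members with the smallest p were Tnni1, Actn2 and Casq1. Tnni1 averaged 106 ± 75.4 scaled counts in Injury and 36.0 ± 26.5 in Sham, with a log2 change of 1.55 ± 0.69 (SE, edgeR adjusted p = 0.236). Actn2 had a log2 change of 2.66 ± 1.93 (SE, edgeR adjusted p = 0.455) and Casq1 of 2.85 ± 2.32 (SE, edgeR adjusted p = 0.509). Acta1 averaged 50621 ± 80058 scaled counts in Injury and 10246 ± 17634 in Sham (SD, n = 3 each), and its SDs exceed its means. Tcap was the 1 member with a fitted change below 0 (−0.03).

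The third comparison, Sacral NC against Sham, asks how far tissue after clamping and transplantation differed from uninjured tissue. It called 0 members and 0 of all 15509 tested genes by edgeR (0 %), while 7.94 % of all genes and 0 members stood at an unadjusted p under 0.05. DESeq2 called 62 genes (0.374 % of those it tested) and 0 of them were members, and the authors' deposited table has 0 members under an adjusted p of 0.05 among 61 such genes (0.359 %). The members' median log2 change was −1.70, against 0.00 for all tested genes, and it became 3.05 without Sham 1 and −5.20 without Sacral NC 2. Myh2, with 12.8 ± 15.2 scaled counts in Sacral NC and 210 ± 352 in Sham, had a log2 change of −4.02 ± 2.15 (SE, edgeR adjusted p = 0.648). Tnni1 had −1.37 ± 0.74 (SE, edgeR adjusted p = 0.648). The 3 comparisons share libraries, so their members' changes are not independent of each other.

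**Figure D5:**
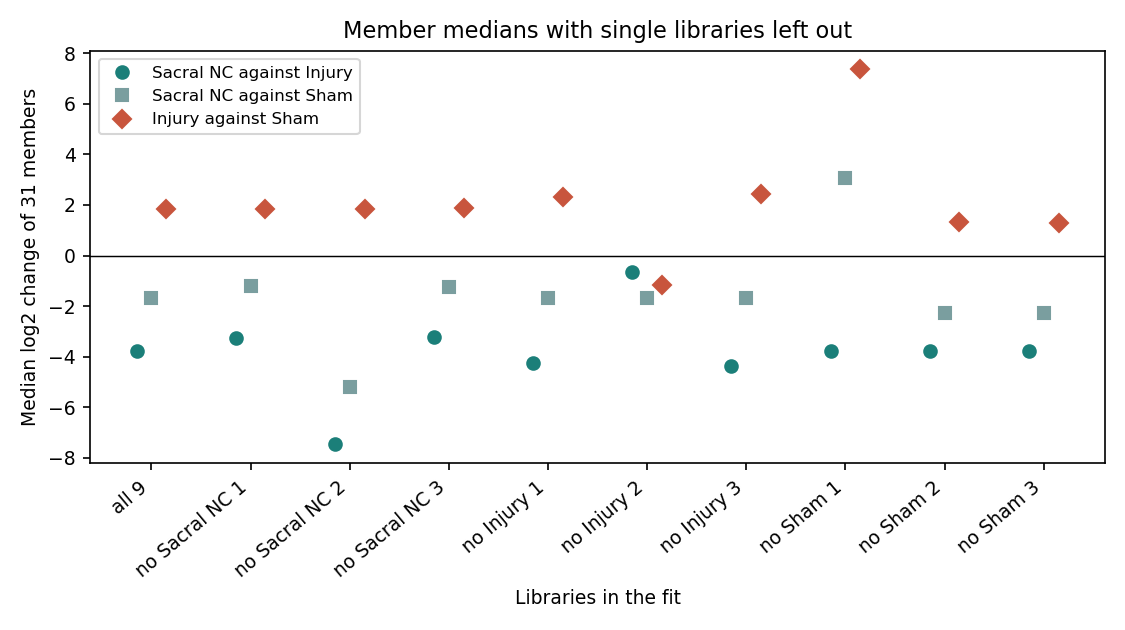
Median log2 change of the 31 members in each comparison with all 9 libraries in the fit and with each library left out in turn. The Injury against Sham median changes sign without Injury 2 (−1.15), and the Sacral NC against Sham median changes sign without Sham 1 (3.05).

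Spread between libraries of a group was the common feature of the members. A median of 15.7 % of a member's variance lay between groups, against 38.6 % for all tested genes. Some share lies between groups even without a group effect, as means of 3 libraries differ by their spread alone. The median SD within groups was 3.60 on the log2 scale, against 0.23 for all tested genes. Without the 4 libraries with most member reads, a choice made after the data were seen that leaves 1 Injury library, the member medians were −0.68 for Sacral NC against Injury, 0.61 for Injury against Sham and −0.14 for Sacral NC against Sham.

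Other muscle genes, in lists chosen with earlier results known, were read the same way. Of 36 further sarcomere genes in the tables, 27 had the same 4 highest libraries as the members, and so had 16 of 18 excitation-contraction and calcium genes, 11 of 16 genes of muscle energy metabolism and 4 of 5 developmental sarcomere genes. Among regulators of muscle formation the count was 7 of 16, and among genes of the neuromuscular junction and denervation it was 5 of 16. Of all tested genes, 2.78 % had these 4 highest libraries. Srl, the reticulum protein sarcalumenin, had 15, 437 and 40 reads in Sacral NC, 482, 5750 and 52 in Injury and 1299, 33 and 15 in Sham. Pgam2, the muscle phosphoglycerate mutase, had 111, 496 and 89 reads in Sacral NC, 405, 5871 and 77 in Injury and 1195, 97 and 108 in Sham. Myod1 and Myf6, transcription factors of the muscle lineage, had 0 reads in each of the 5 libraries poor in member reads. Sacral NC 2, Injury 1, Injury 2 and Sham 1 had 14, 27, 145 and 39 reads of Myod1 and 61, 85, 567 and 355 reads of Myf6. These 2 genes do not stand for the 16 regulators, of which 7 had at most 3 reads in each of the 5 libraries. Summed as CPM (read counts scaled to the library total), the 16 were highest in Injury 3, at 1129. They were at 685, 787, 665 and 610 in Sacral NC 2, Injury 1, Injury 2 and Sham 1. In Sacral NC 1, Sacral NC 3, Sham 2 and Sham 3 they were at 344, 415, 481 and 530.

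Between groups, 1 of the 100 tested genes of these 6 lists was called by edgeR, and 7 stood at an unadjusted p under 0.05, in Injury against Sham, against 4.43 % and 21.9 % of all tested genes. Lrp4, the agrin receptor of the neuromuscular junction that other cells also express, had 529, 610 and 558 reads in Injury 1, 2 and 3 and 463, 453 and 350 in Sham 1, 2 and 3. Its Injury reads lay close together, although the member reads of these libraries were 47206, 627890 and 3698. Its log2 change was 0.67 ± 0.13 (SE, edgeR adjusted p = 0.0287). The call was lost without any single Injury or Sham library, at adjusted p from 0.0613 to 0.110, and at 0.0683 with the replicate number as a block and 0.225 without the 4 libraries rich in member reads, with log2 changes of 0.56 to 0.72. DESeq2 called 3 list genes, Lrp4, Chodl and Chrng, which is 2.94 % of those it tested, against 9.79 % of all genes it tested. These shares lie below the background and are no result about the lists.

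The median log2 changes of the lists between Injury and Sham were 1.77 for further sarcomere genes, 1.70 for calcium genes, 0.98 for energy metabolism, 0.70 for regulators, 0.45 for junction genes and 1.95 for developmental genes. For Sacral NC against Injury they were −3.50, −2.61, −1.18, −1.10, −0.38 and −4.00 in the same order, and for Sacral NC against Sham −1.21, −1.09, −0.32, −0.37, −0.14 and −0.83. By edgeR 0 genes of these lists were called in Sacral NC against Injury, with 11 of 100 at an unadjusted p under 0.05 (26.6 % of all tested genes), and 0 in Sacral NC against Sham, with 1 (7.94 % of all tested genes). DESeq2 called 6 in Sacral NC against Injury (Chodl, Chrng, Csrp3, Myh3, Myoz2 and Rapsn), which is 5.88 % of those it tested, against 14 % of all genes it tested, and 0 in Sacral NC against Sham. The 6 are fewer than the background share would give, and the 2 described next were chosen after their values were seen. Csrp3, a muscle LIM protein of the Z-disc, had 0, 1 and 0 reads in Sacral NC 1, 2 and 3, 97, 905 and 1 in Injury 1, 2 and 3, and 55, 0 and 0 in Sham 1, 2 and 3. Myh3, the embryonic heavy chain, had 0, 4 and 0 reads in Sacral NC, 78, 604 and 1 in Injury and 84, 1 and 1 in Sham. Sacral NC 2 thus had at most 4 reads of either gene, and Injury 1, with fewer member reads in all, at least 78.

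Among markers of other cell types, only smooth muscle genes shared the members' 4 highest libraries, and only in part. The 13 smooth muscle markers summed to 2417, 13472 and 3955 CPM (read counts scaled to the library total) in Sacral NC 1, 2 and 3, 8656, 6198 and 6024 in Injury 1, 2 and 3, and 10617, 4827 and 4491 in Sham 1, 2 and 3. Sacral NC 2, Injury 1 and Sham 1 were the 3 highest, while Injury 2, with most member reads, was close to Injury 3. In 8 of these 13 genes the 4 highest libraries were the same as for the members, against 2.78 % of all tested genes. The 8 were Actg2, Cnn1, Tagln, Smtn, Des, Myl9, Synpo2 and Pcp4. Of the 13, 0 were called by edgeR or DESeq2, or stood at an unadjusted edgeR p under 0.05, in any comparison. The 6 cardiac markers summed to 3.29 to 17.9 CPM. Their part, and that of the smooth muscle markers, in the member values was not tested. No gene of the cardiac, endothelial, adipocyte, fibroblast, macrophage, Schwann cell or pluripotent lists had the members' 4 highest libraries.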

How the data were processed

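Groups and replicate numbers came from the sample titles. The labels give mouse as the organism, and the processing notes of the submitters give the mouse build GRCm38.p6. All 21124 gene identifiers are rat Ensembl identifiers, so the tables were read as rat data, in coordinates of an unstated build. The aligner was HISAT2 2.0.5, per the submitters' processing notes, and no counter or strand setting is stated.

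The authors deposited 3 tables, 1 per pair of groups, with raw read counts per gene and library, per the file headers. Each also holds the authors' group means (a signal averaged over libraries), log2 fold change, test statistic (a score), p-value and adjusted p-value, per the file headers. Counts of a library found in several tables were compared, 0 of 190116 values differed, and the 9 libraries were joined.

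Counts were tested with the edgeR 4.0.16 quasi-likelihood F-test in R 4.3.3 (TMM, default low-count filter, 15509 genes kept, all 31 members among them). All 9 libraries entered 1 fit, with Benjamini-Hochberg adjustment over all tested genes. SE are from the F statistic. Scaled counts are TMM-scaled. The fit was also run on simulated counts in which no library was set apart as rich in member reads. That run therefore does not test the fit for the members. DESeq2 1.42.0, other scalings and filters, a replicate block, fits of 2 groups and fits without single libraries were alternatives. Ratios between libraries and shares have 95 % exact intervals, which cover counting error only, since reads are not independent molecules. No rat gene lengths were used here, so shares of reads within gene pairs or sets compare libraries and not the amounts of the genes.

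The members and all lists were chosen with earlier results of these data known. Members given in every library are the heavy chains and troponins, those with most reads, those with the highest and lowest median counts, and those with the smallest p in each comparison. Other members and genes were named after their values were seen.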

Additional observations from a re-analysis of the deposited data

How the results depend on the processing

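No direction of a called value rests on these settings, since no member was called by edgeR in any of them. By DESeq2, 1 member (Tnni1, log2 −2.96) was called in Sacral NC against Injury. Genes called numbered 2268 by DESeq2, 239 with only these groups in the fit, 471 with the replicate number as a block and 59 without the 4 libraries rich in member reads for Sacral NC against Injury (1080 in the reported fit). For Injury against Sham (687) they numbered 1584, 1456, 267 and 1, and for Sacral NC against Sham (0) DESeq2 called 62. With single libraries left out, genes called ran from 285 (without Sacral NC 1) to 3574 (without Sacral NC 2) in Sacral NC against Injury, and those without Sacral NC 3, Injury 1, 2 or 3, or Sham 1 or 3 were also over 1.5 times fewer (476, 470, 417, 307, 705 and 495). For Injury against Sham they ran from 21 (without Sham 3) to 1329 (without Sacral NC 2), with 259, 166, 113, 263 and 69 without Injury 1, 2 and 3 and Sham 1 and 2. For Sacral NC against Sham they ran from 0 to 106 (without Sacral NC 2), with 1 without Sham 2. The member medians ran from −7.47 to −0.66, from −1.15 to 7.37 and from −5.20 to 3.05 for Sacral NC against Injury, Injury against Sham and Sacral NC against Sham. The cause of these shifts was not tested.

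Same-numbered libraries had correlations of −0.55 to 0.62, above 0.1 in 5 of 9 pairs, and 3 of 9 libraries correlated best with their own number. These are correlations of deviations from group means of 3 libraries, so they cannot settle whether the numbers pair the libraries. With the replicate block the member medians were −3.19, 0.56 and −2.73 for the 3 comparisons in the order above. At this depth members with few reads, the slow troponins and Cacng1 among them, have wide counting intervals.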
